A study of Mus musculus with 8 samples.

Results

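Genes known from hematopoietic stem cells (HSCs) were followed in common myeloid progenitors (CMPs) of young and old mice. The 41 members, of 34797 gene names on the array, were 29 genes linked to HSC aging or met among the age differences of these cells (aging-linked members) and 12 genes that mark or maintain HSCs at any age (core HSC members). Every probe carrying the name of a member was taken, 56 probes in all. The old against young values of these same arrays were known when the members were named, so the members count as chosen by those values, which are given as a description without a test.

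HSCs sit at the top of blood formation and give rise to all blood lineages, whereas CMPs are their progeny on the way to granulocytes, monocytes, red cells and megakaryocytes. With age the HSC pool of mice grows, leans toward myeloid and platelet output, and takes on a set of genes that is scarce in young HSCs, among them adhesion molecules, lipid-handling proteins and platelet genes. Core HSC genes, by contrast, encode surface receptors such as Procr, Esam and Tek and transcription factors such as Hlf and Mecom. The comparison asked whether old CMPs carried the aging-linked genes at a higher level, and whether the core HSC genes moved with them.

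The RNA came from untreated wildtype C57BL/6J mice, 4 young samples numbered 3 to 6 and 4 old samples numbered 2 to 5, each on 1 one-color Agilent array. The sample labels give ages of 2 to 3 and 22 to 24 months, and the series text gives 3 to 4 and 22 to 26 months. CMPs were sorted as lineage-negative, c-Kit+, Sca-1-, CD34+, FcγR low bone marrow cells, without transplantation, transgene or culture. The study describes 3 young and 3 old mice analyzed individually, without saying which of the 4 arrays per age these were. For the fourth array of an age no animal is stated, so adjusted p-values measure the spread between these samples, part of which may be technical.

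Kit, Cd34, Fcgr3 and Fcgr2b, whose proteins the gate selects on, were well above background on all 8 arrays, and none was called between the ages (limma adjusted p of at least 0.879). Of 5 genes whose proteins the sort removes, Ly6g was above background on 1 array, Cd8a on 4, and Ly6a (Sca-1), Itgam and Cd4 on all 8. Ly6a lay wholly lower in old CMPs (-0.73 ± 0.23, limma adjusted p = 0.414), and the arrays of the other 4 overlapped between the ages. The arrays had between 55.6% and 63.2% of their probes well above background and no saturated spot. The 2 slides held 2 arrays of each age, but young arrays always lay in the first and old arrays in the second row of a slide, so row and age cannot be told apart.

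Values are log2 signals relative to the 75th percentile of the same array, and a difference is old minus young on this scale. A probe was called when limma gave a Benjamini-Hochberg adjusted p under 0.05 with at least a 1.5-fold change. At that threshold 7 of the 41 members were called higher in old CMPs and 0 lower, beside 0.207% of 23155 tested gene names called higher and 0.0432% called lower. Without the adjustment, limma placed 18 members higher and 1 lower, beside 3.36% and 2.73% of gene names. The methods' t-test gave 16 and 1 without adjustment, beside 2.54% and 1.55% of gene names, and 0 members and 0% of gene names after it. All 7 called members were aging-linked and 0 of the 12 core HSC members were called. Since the same contrast was known when the members were chosen, nothing is read from these counts.

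Phospholipid scramblase 2 (Plscr2, chr9:92192504-92192563, mm9), of a family that moves lipids between the leaflets of membranes, measured -3.67, -3.49, -5.24 and -4.10 on young arrays 3 to 6 and 0.98, 0.46, 1.30 and 1.32 on old arrays 2 to 5. All old arrays lay far above all young ones, and young array 5 was not well above background. The difference of 5.14 ± 0.38 (SE, n = 4 and 4) amounts to 35.2-fold. With the normexp background correction, which compresses dim signals, it was 3.27, or 9.65-fold. With young array 5 set to its floor, the lowest signal of a well measured probe on that array, the difference was at least 30.4-fold. The floor is no strict limit, since probes not well above background can read above it. On young array 5 the HSC gene Slamf1 did so, at -3.95 against a floor of -4.39. Here and below, a bound therefore holds against this floor only.

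Sprr2a2, which encodes a small proline-rich protein of the cornified envelope of skin and other epithelia, was listed under 3 probes with unlike readings. The probe A_55_P2048855 (chr3:92058417-92058476, mm9) measured -1.96, -0.12, -2.02 and -1.33 in young and 3.01, 3.54, 2.69 and 1.96 in old CMPs. This difference of 4.16 ± 0.46, or 17.8-fold, was 3.77 after normexp. The probe A_55_P1974976 (chr3:92060587-92060646, mm9) measured 8.69, 8.50, 8.88 and 8.64 in young and 8.64, 8.74, 9.05 and 8.58 in old CMPs, so that its ages overlapped. The probe A_55_P2048853 (chr3:92054627-92054686, mm9) was not marked well above background on any array. The call of Sprr2a2 therefore rests on 1 of its 3 probes, and in the deposited series table, where rows can combine probes, its difference was 0.13.

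The sequences of the Sprr2a2 probes are shown because the probes disagree. The last 30 of their 60 bases, as the scanner files give them, are written 5′ to 3′ with the polyadenylation signal letters AATAAA in capitals, from chr3:92058447-92058476, chr3:92060617-92060646 and chr3:92054657-92054686 (mm9, plus strand).
A_55_P2048855: acccctttggtgatggtctAATAAAtactt
A_55_P1974976: catggcctAATAAAcaaaaacgaaaaaagg
A_55_P2048853: attcctggtactcaagcattggtctgctcc
The whole probes shared no run longer than 8 bases. The bright probe without an age difference held 17 A in these 30 bases, a content reached by 1.13% of all 55681 probes (median 9), whereas the called probe held 8. Whether this composition bears on its reading was not tested.

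Surface proteins supplied 3 further called members. Tm4sf1 (chr3:57091569-57091628, mm9), a tetraspanin-like membrane protein known from endothelial and tumor cells, measured -5.61, -4.83, -3.40 and -3.43 in young and -1.05, -0.86, -0.88 and -0.49 in old CMPs. The ages did not overlap, only young arrays 5 and 6 among the young were well above background, and the difference was 3.49 ± 0.46 (11.3-fold; 3.57-fold after normexp). With the dim young arrays at no less than their floor, it was at least 10.4-fold. Kiss1r (chr10:79384869-79384928, mm9), the receptor for kisspeptins, measured -5.14, -4.11, -5.15 and -3.81 in young and -1.11, -1.71, -1.92 and -1.10 in old CMPs. It had 2 of 4 young arrays above background and a difference of 3.09 ± 0.35 (8.54-fold; 2.84-fold after normexp), or at least 7.48-fold with the dim young arrays at no less than their floor. The C-type lectin-like receptor Clec1a (chr6:129377543-129377602, mm9) measured -5.67, -7.45, -6.34 and -6.92 in young and -3.54, -3.79, -2.68 and -2.96 in old CMPs. No young array was well above background for Clec1a, which entered the limma fit through its 4 old arrays alone. Its young values are only a bound, set for each array at the lowest signal of a well measured probe. Old CMPs exceeded this bound 3.25-fold. After normexp this bound was 1.58-fold and Clec1a was not called.

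An enzyme and a nuclear receptor completed the called members. Aspa (chr11:73119051-73119110, mm9), the aspartoacylase that splits N-acetylaspartate, measured -4.38, -4.75, -5.89 and -4.75 in young and -1.69, -2.07, -2.09 and -2.19 in old CMPs. Young array 5 was not well above background, the ages did not overlap, and the difference was 2.93 ± 0.31 (7.65-fold; 2.19-fold after normexp), or at least 5.90-fold with that array at its floor. Rorb, an orphan nuclear receptor, was called with both of its probes. The one at chr19:19012149-19012208 (mm9) measured -4.14, -4.26, -5.02 and -4.13 in young and -2.90, -2.89, -2.58 and -1.997 in old CMPs, a difference of 1.80 ± 0.28 (3.47-fold), or at least 3.11-fold with young array 5, which was not well above background, at its floor. The one at chr19:19006883-19006942 gave 1.56 ± 0.22 (2.94-fold). After normexp these differences were 0.81 and 0.84, and Rorb was not called.

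**Figure D1:**
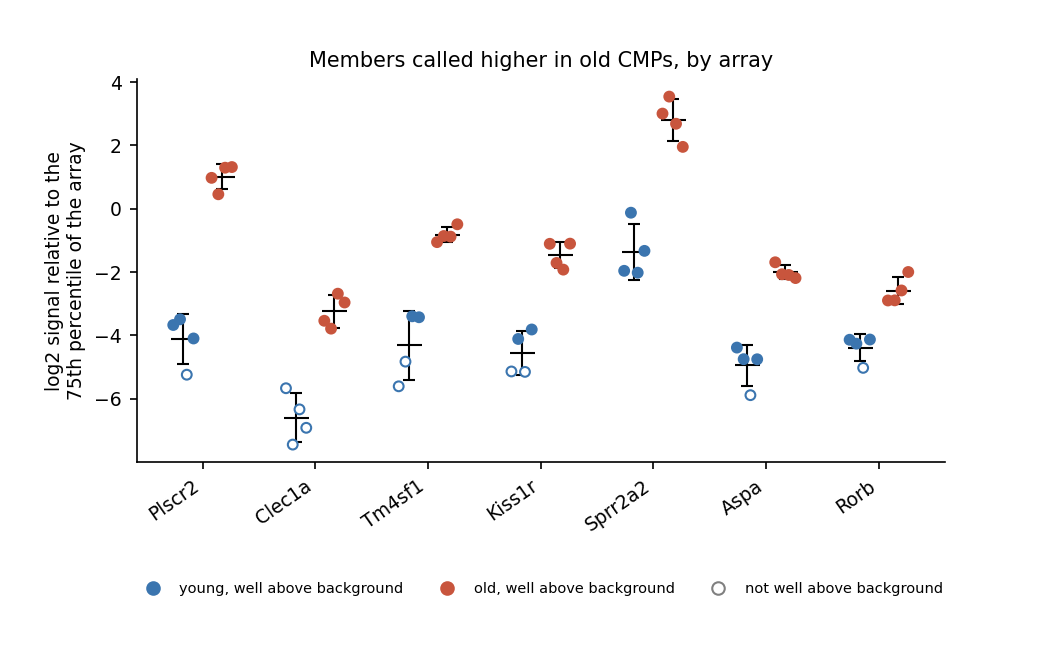
Log2 signal relative to the 75th percentile of the array (vertical axis) on each of the 8 arrays for the 7 called members, Sprr2a2 and Rorb by their called probe with the largest change. Bars give the mean ± SD of 4 arrays and open circles mark arrays not well above background. For each of the 7 genes the 4 old arrays sit above the 4 young arrays, and the 4 young circles of Clec1a are all open.

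The second Rorb probe lay inside an interval of the same strand that the array design annotates as a long intergenic noncoding RNA (lincRNA, chr19:19005109-19008657, mm9), while the first lay 3492 bases outside it. The array holds 3 probes for this lincRNA. One of them, A_30_P01031958, measured -7.14, -7.32, -6.43 and -7.09 in young CMPs, all not well above background, and -2.62, -2.96, -2.88 and -2.14 in old CMPs. With its young arrays at no less than their floor, its rise in old CMPs was 4.90-fold (1.91-fold after normexp). It entered the limma fit through its 4 old arrays alone, so no p-value is given. The bright probe A_30_P01025044 differed by 0.24 ± 0.26, and the third, A_30_P01022245, by 0.78 ± 0.22. Whether the inner Rorb probe reads Rorb, the lincRNA or both was not tested.

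**Figure D2:**
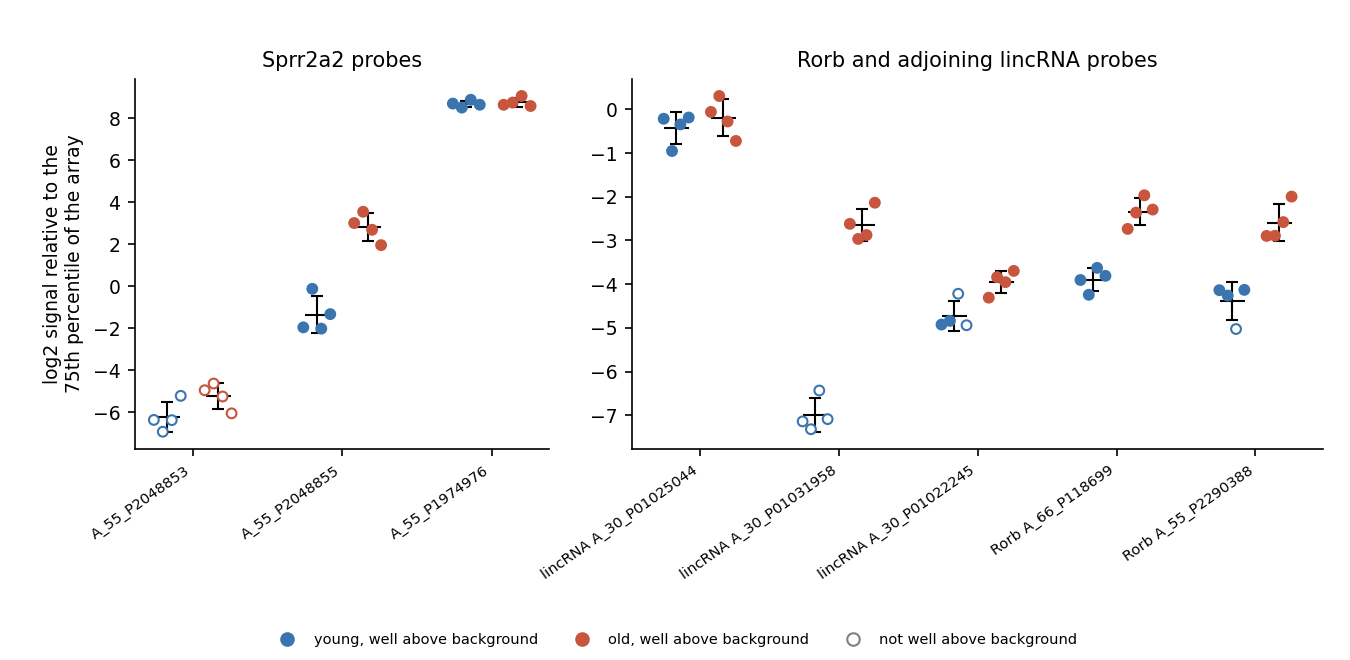
Log2 signal relative to the 75th percentile of the array for the 3 Sprr2a2 probes (left) and for the 3 lincRNA and 2 Rorb probes on chromosome 19 (right), each with 4 young and 4 old arrays, mean ± SD. Levels of different probes are not comparable with each other. The ages separate for 1 of 3 Sprr2a2 probes, both Rorb probes and 1 of 3 lincRNA probes.

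Within slide 1 the differences of the 7 called members ran from 1.46 (Rorb) to 4.72 (Plscr2), and within slide 2 from 2.13 (Rorb) to 5.56 (Plscr2). With slide as a block, 6 were called, without Rorb, beside 0.138% of gene names called higher. Plscr2, Kiss1r, Sprr2a2 and Aspa were called whichever single array was left out. Clec1a was not called without old array 5, Tm4sf1 not without young array 4 or without any one of the old arrays, and Rorb was called only without old array 2 among these 8 fits. Without old array 5 the count was 4 members, while the gene names called higher fell from 48 to 22. Of the 7 called members, Plscr2, Clec1a, Tm4sf1, Kiss1r and Sprr2a2 also stand in a panel of strongly regulated genes that the study drew from these arrays, and 2 called members remain without them.

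Of the 41 members, 31 have a promoter in the RefSeq table (GRCm38). The promoters of Tm4sf1 (chr3:57301989-57302238, minus strand), Kiss1r (chr10:79916721-79916970, plus strand) and Aspa (chr11:73324638-73324887, minus strand) are shown as members that were higher together. Each holds the 250 bases before the RefSeq start, 5′ to 3′, in lower case because no searched motif lies in it.
Tm4sf1: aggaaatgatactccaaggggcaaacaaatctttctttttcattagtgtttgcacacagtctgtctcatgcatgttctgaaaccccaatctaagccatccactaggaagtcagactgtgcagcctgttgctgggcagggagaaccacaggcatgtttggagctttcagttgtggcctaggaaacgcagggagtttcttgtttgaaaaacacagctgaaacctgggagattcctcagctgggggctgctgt
Kiss1r: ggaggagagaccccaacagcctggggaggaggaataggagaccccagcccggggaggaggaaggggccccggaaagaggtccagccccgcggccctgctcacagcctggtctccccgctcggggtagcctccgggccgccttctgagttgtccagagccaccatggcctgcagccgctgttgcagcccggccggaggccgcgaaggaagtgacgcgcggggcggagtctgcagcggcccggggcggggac
Aspa: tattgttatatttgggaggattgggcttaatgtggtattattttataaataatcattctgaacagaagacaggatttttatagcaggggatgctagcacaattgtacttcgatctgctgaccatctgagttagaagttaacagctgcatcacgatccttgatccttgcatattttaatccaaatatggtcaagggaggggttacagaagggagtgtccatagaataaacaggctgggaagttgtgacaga
Their base composition differed widely, with 48.0% GC for Tm4sf1, 72.8% for Kiss1r and 38.8% for Aspa, beside a median of 52.4% over 32851 promoters. Motifs of 5 factor classes were searched on both strands from 250 bases before to 50 bases after each start. AGATAA, the core of sites for GATA factors, lay in 3 of the 31 members (9.68%; Cd38, Klhl4 and Tek) and in 12.7% of 27025 genes. TGTGGTTT (RUNX) lay in 2 (6.45%; Dhrs3 and Fhl1) and in 2.11% of all genes. CCGGAAGT (ETS) and the pair TTACGTAA and TTATGTAA (PAR bZIP, the class of Hlf) lay in none of the 31, against 4.31% and 1.23% of all genes. None of the letters searched lay in the promoters of the 5 called members that have one. The Procr and Cd38 matches are shown in capitals to place them in the stretch before the start (chr2:155750967-155751216 and chr5:43868559-43868808, plus strand).
Procr: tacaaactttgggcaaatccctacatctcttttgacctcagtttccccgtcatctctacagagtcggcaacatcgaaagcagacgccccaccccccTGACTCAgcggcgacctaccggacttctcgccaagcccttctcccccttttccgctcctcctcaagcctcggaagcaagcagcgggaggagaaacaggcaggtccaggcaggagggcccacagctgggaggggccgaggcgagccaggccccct
Cd38: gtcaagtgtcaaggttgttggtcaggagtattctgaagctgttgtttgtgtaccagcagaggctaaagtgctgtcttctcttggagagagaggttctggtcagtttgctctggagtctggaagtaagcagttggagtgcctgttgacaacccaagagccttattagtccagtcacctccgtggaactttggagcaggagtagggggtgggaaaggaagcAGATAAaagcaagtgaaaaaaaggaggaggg
The capitals of Procr are the AP-1 letters TGACTCA, which lay in 1 of the 31 members (3.23%) and in 5.95% of all genes, and start 154 bases before the start of the gene. Those of Cd38 are the GATA letters, 31 bases before its start. These matches are letters in a window and no measurement of binding.

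A further group of aging-linked members was higher on every old array than on every young one at its brightest probe without being called. Clusterin (Clu, chr14:66600325-66600382, mm9), a secreted chaperone also stored in platelet granules, measured 1.78, 0.89, 1.23 and 1.66 in young and 2.86, 2.62, 3.26 and 3.45 in old CMPs, a difference of 1.66 ± 0.26. Ehd3 (chr17:74181371-74181428, mm9), which takes part in endosomal membrane traffic, measured 1.33, 1.33, 1.68 and 2.04 in young and 3.04, 2.71, 2.77 and 3.09 in old CMPs, a difference of 1.31 ± 0.21. Sdpr (chr1:51359651-51359710, mm9; now Cavin2), a coat protein of caveolae, measured 3.33, 2.42, 2.20 and 2.57 in young and 4.14, 4.15, 3.65 and 3.70 in old CMPs, a difference of 1.28 ± 0.26. These 3 genes were well above background on all 8 arrays, and their differences moved little under normexp, at 1.64, 1.17 and 1.33. Over the 26 settings described below, Clu was called in 9, Ehd3 in 8 and Sdpr in 5, beside 11 for the called member Rorb. Called and uncalled members were thus not sharply divided.

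Jam2 (chr16:84816558-84816617, mm9), a junctional adhesion molecule, measured -2.26, -2.998, -3.01 and -2.40 in young and -1.78, -1.84, -1.27 and -1.40 in old CMPs, a difference of 1.10 ± 0.24. Its other probes gave 0.84 ± 0.47 and 0.16 ± 0.23, with overlapping ages, so the separation belongs to 1 of 3 probes. The receptor tyrosine phosphatase Ptprk (chr10:28315827-28315886, mm9) measured -5.76, -5.51, -5.35 and -4.97 in young and -4.73, -4.46, -4.44 and -4.26 in old CMPs. It was not well above background on any young array. With young arrays at no less than their floor, old CMPs were 1.38-fold higher (1.23-fold after normexp). The oxysterol receptor Gpr183 (chr14:122351881-122351940, mm9), which guides the migration of B cells and other leukocytes, ran the other way at -0.27, -0.02, -0.40 and 0.02 in young and -0.75, -0.99, -1.20 and -0.42 in old CMPs. Its difference was -0.68 ± 0.21, and it was the 1 member lower on every old than on every young array. In all, the brightest probes of 14 members lay wholly higher and of 1 wholly lower in old CMPs, beside 3.18% and 1.66% of all tested gene names (4.84% in either direction), again with nothing read from the counts.

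The other aging-linked members overlapped between the ages at their brightest probe. Enpp5, of a family of ectonucleotide phosphodiesterases, differed by 1.003 ± 0.28 there and by 0.85 ± 0.24 at its dimmer probe, where the ages overlapped too. Cd38, an ectoenzyme that consumes NAD, differed by 0.80 ± 0.32, the copine Cpne8 by 0.69 ± 0.38 and the retinaldehyde reductase Dhrs3 by 0.68 ± 0.30. Cpne8 differed by 1.34 on slide 1 and by 0.05 on slide 2. Nupr1, a small stress-induced nuclear protein, differed by 0.91 ± 0.55, with a spread within each age that exceeded that of 96.9% of tested probes.

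Several members on aging-linked lists showed little difference or a negative one. The sulfotransferase Sult1a1 differed by 0.02 ± 0.28, the netrin and repulsive guidance receptor Neo1 by -0.14 ± 0.23, and Ramp2, which pairs with the calcitonin receptor-like receptor, by -0.31 ± 0.22. The adhesion molecule Alcam differed by -0.19 ± 0.24 and the guanine deaminase Gda by -0.19 ± 0.22, and both differed in sign between the slides, with Alcam at -0.55 on slide 1 and 0.16 on slide 2 and Gda at -0.56 and 0.18. The dimmer Gda probe had the opposite sign, at 0.23 ± 0.22, and the dimmer Sult1a1 probe gave -0.27 ± 0.57. The oncostatin M receptor Osmr, the cation channel Trpc1 and the transcriptional corepressor Runx1t1 were not well above background on any array, so no difference could be measured. Mamdc2 was above background on 2 old arrays, Klhl4 and Zswim5 on 1 each, and none of the 3 on a young array. With young arrays at no less than their floor, Mamdc2 was 1.13-fold higher in old CMPs. For Klhl4 and Zswim5 no bound above 1 was reached.

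Of the 12 core HSC members, 9 had a positive and 3 a negative difference at the brightest probe, beside 46.2% of all gene names positive. Fhl1, measured on no array, counts among the positive, as do the untested Mecom and Cyyr1, the latter measured on old arrays only. The ages stood apart for 3 of the 12. Esam (chr9:37345795-37345854, mm9), an adhesion molecule of endothelium, platelets and HSCs, measured 0.91, -0.07, 0.39 and 0.78 in young and 1.56, 1.29, 1.82 and 2.27 in old CMPs, a difference of 1.23 ± 0.28 (2.35-fold). Pdzk1ip1 (chr4:114766409-114766468, mm9), a small membrane protein, measured 4.17, 3.68, 3.93 and 4.27 in young and 5.17, 5.02, 4.89 and 5.08 in old CMPs, a difference of 1.02 ± 0.19 (2.03-fold), with 1.06 ± 0.17 at its second probe. Tie1 (chr4:118144132-118144191, mm9), the partner of the angiopoietin receptor, measured -0.32, -0.37, 0.43 and 0.38 in young and 1.25, 1.14, 0.69 and 1.09 in old CMPs, a difference of 1.01 ± 0.25 (2.01-fold). In these 3 genes the ages did not overlap, with the old arrays on top, and none was called. The within-slide differences were 1.27 and 1.20 for Esam, 1.11 and 0.94 for Pdzk1ip1 and 1.31 and 0.71 for Tie1 on slides 1 and 2.

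The other core HSC members overlapped between the ages. Hlf (chr11:90200696-90200755, mm9), a PAR bZIP transcription factor, measured -0.07, -0.56, 0.01 and -0.19 in young and 0.32, 0.39, 0.47 and -0.24 in old CMPs, and its difference was 0.44 ± 0.22. Old array 5 lay among the young arrays and the other old arrays above them. Procr (chr2:155580945-155581004, mm9), the endothelial protein C receptor used to sort HSCs, measured 0.09, -0.95, -0.31 and -0.27 in young and -0.81, -0.94, -0.56 and -0.34 in old CMPs, a difference of -0.30 ± 0.25. Tek (chr4:94540624-94540683, mm9), the angiopoietin receptor, measured -3.38, -2.46, -2.17 and -2.13 in young and -1.74, -2.22, -3.26 and -1.15 in old CMPs, a difference of 0.44 ± 0.44 that was as large as its error. The old arrays of Tek spread more widely than the young ones and enclosed 3 of them.

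Gprc5c (chr11:114733870-114733929, mm9), an orphan receptor of the retinoic acid-inducible group, measured -1.66, -1.88, -3.17 and -2.29 in young and -2.60, -3.37, -2.03 and -2.81 in old CMPs, a difference of -0.45 ± 0.37. Ctnnal1 (chr4:56823874-56823933, mm9), the alpha-catulin whose promoter activity marks HSCs in reporter mice, measured 0.79, 0.42, 0.15 and 0.55 in young and 0.73, 0.73, 0.62 and 0.93 in old CMPs, a difference of 0.27 ± 0.19. For both genes the arrays of the ages were interleaved. Their dimmer tested probes gave -0.36 ± 0.45 for Gprc5c and 0.37 ± 0.28 for Ctnnal1. Fgd5 (chr6:92025610-92025669, mm9), an exchange factor for Cdc42 and another reporter gene for HSCs, measured -4.14, -5.04, -4.26 and -4.69 in young and -5.14, -3.81, -4.62 and -4.77 in old CMPs, with 3 young and 1 old array above background and a difference of -0.05 ± 0.31. Mecom (chr3:29876185-29876244, mm9), a zinc finger factor needed for HSC upkeep, measured -4.55, -5.56, -4.84 and -5.45 in young and -3.83, -4.70, -4.90 and -4.44 in old CMPs, with 1 young and 2 old arrays above background. It was too dim to be tested, as were its other 2 probes. The difference was 0.63 ± 0.32 at this probe and -0.11 ± 0.49 and -0.09 ± 0.28 at the others. The last was above background on no array, and the sign differed between the probes.

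Cyyr1 (chr16:85456577-85456636, mm9) measured -5.11, -5.85, -6.41 and -6.84 in young, none well above background, and -5.50, -3.85, -4.14 and -4.93 in old CMPs, of which arrays 3, 4 and 5 were. With young arrays at no less than their floor, old CMPs held 1.25-fold more (1.18-fold after normexp). Cyyr1 was not tested. The LIM domain protein Fhl1 (chrX:54045353-54045412, mm9) was not marked well above background on any array. Of the 12 core HSC members, 8 were thus measured on all 8 arrays.

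**Figure D3:**
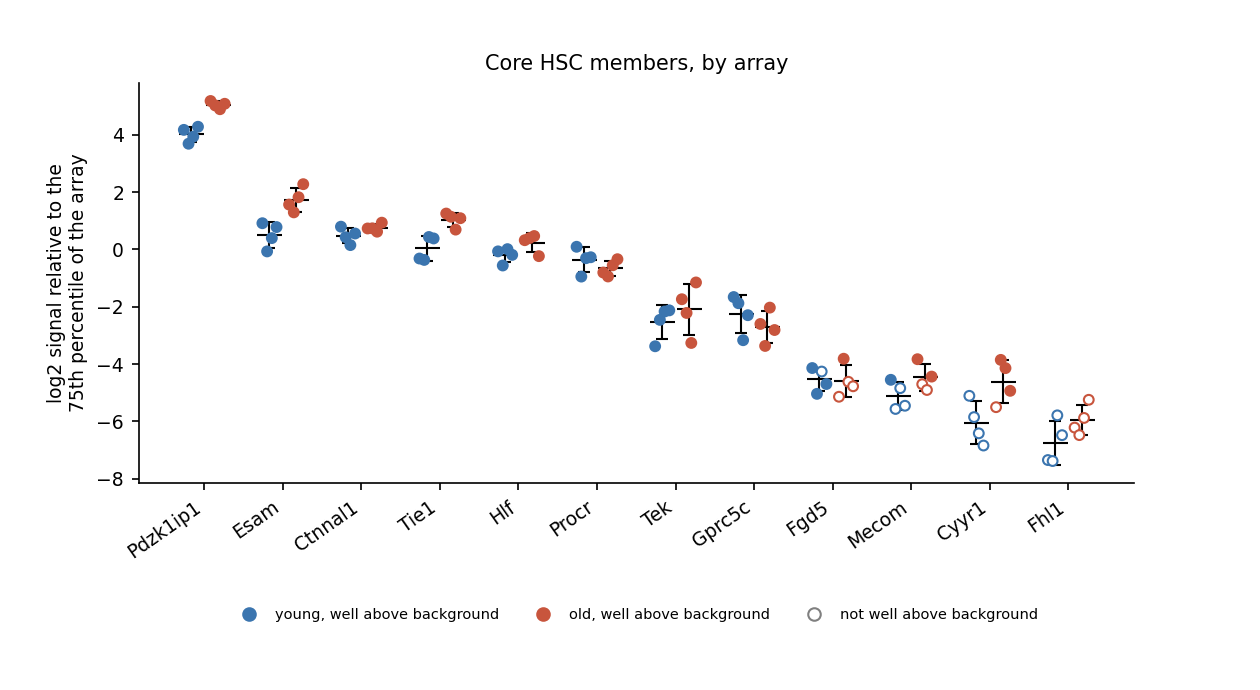
Log2 signal relative to the 75th percentile of the array (vertical axis) on each of the 8 arrays for the 12 core HSC members, with mean ± SD of 4 arrays and open circles for arrays not well above background. Old arrays lie wholly above young ones for Pdzk1ip1, Esam and Tie1, and the ages overlap for the other 9 genes.

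Over all 29 aging-linked members the median difference was 0.91, and over the 12 core HSC members 0.54, beside -0.02 over all 34797 gene names. With members measured at 1 age only set to their bound and those measured on no array left out, the medians were 0.74 and 0.44. They covered 26 and 11 members. Klhl4 and Zswim5, for which no usable bound was reached, entered as no difference. Over all 29 and 12 members, without bounds, the medians after normexp were 0.49 and 0.34. Of all 41 members, 31 had a positive and 10 a negative difference at the brightest probe, beside 46.2% of all gene names positive. Runx1t1 and Fhl1 among the positive and Osmr and Trpc1 among the negative were measured on no array, so their signs carry no reading. The difference between both classes was not tested, since both were chosen with the values known.

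**Figure D4:**
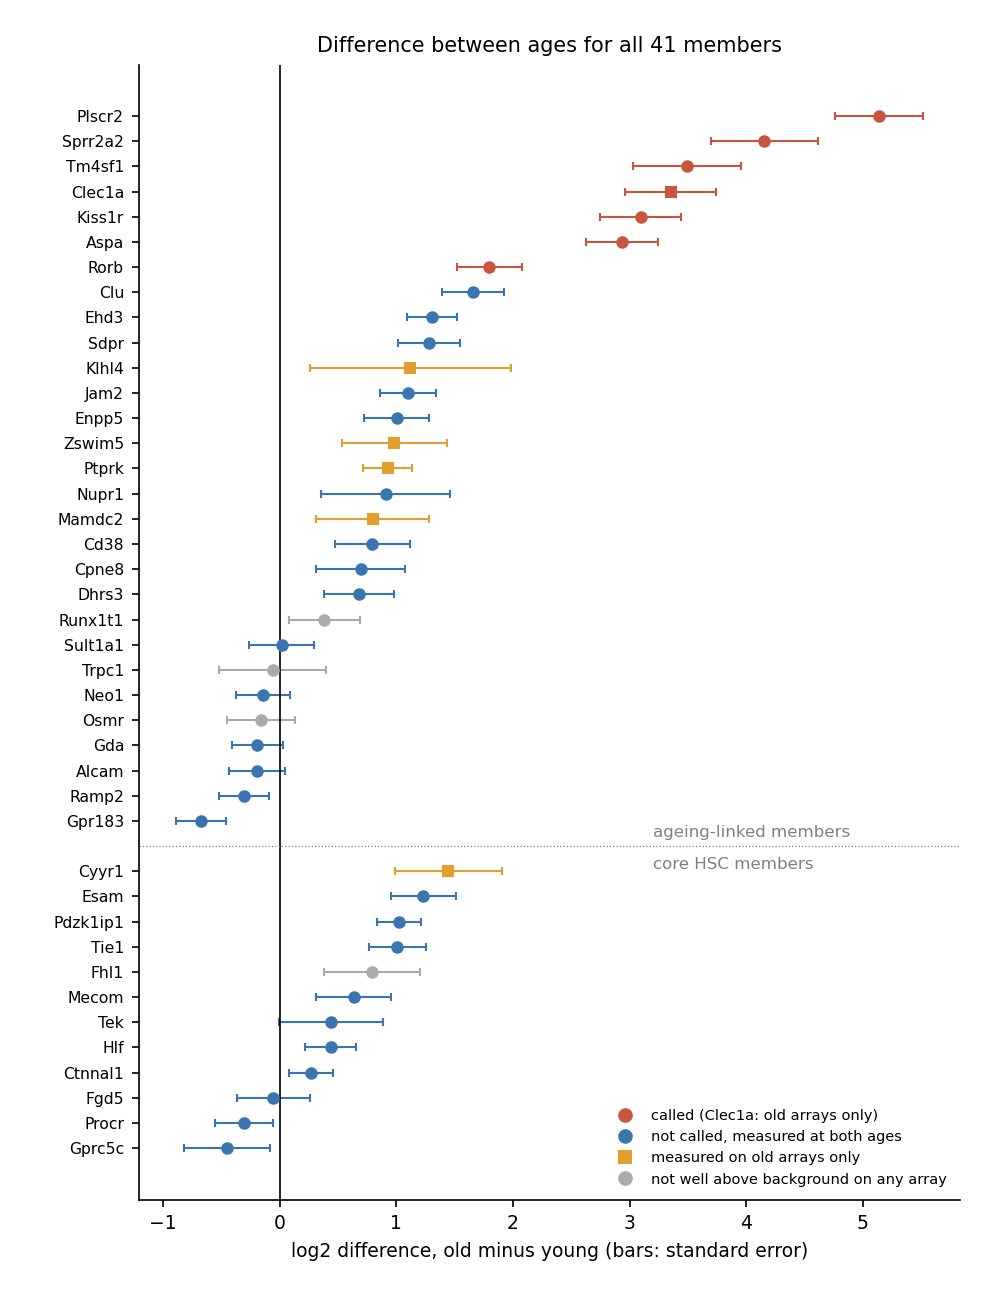
Difference between old and young CMPs on the log2 scale (horizontal axis, bars: standard error, n = 4 and 4) for all 41 members, aging-linked members above and core HSC members below the dotted line. The 7 called members lie between 1.80 and 5.14, and squares mark members measured on old arrays only, whose plotted position is not a bound.

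Genes of the same kind that are no members were taken as a frame, from lists written from general knowledge with earlier results of these data known. Of 23 other genes linked to aged HSCs, 20 were tested and 2 were called higher, 0 lower, beside 0.25% of gene names called in either direction. Aldh1a1, which makes retinoic acid, differed by 3.11 ± 0.27 (limma adjusted p = 0.00159) and the glutathione transferase Gstm2 by 1.46 ± 0.20 (limma adjusted p = 0.0278). The 3 untested genes, Cyp26b1, Ampd3 and Dnm3, were above background on young arrays only, Dnm3 on 3 of them. With old arrays at no less than their floor, Dnm3 was at least 2.95-fold lower in old CMPs (1.72-fold after normexp). For Cyp26b1 and Ampd3 no usable bound was reached. The 23 genes had a median difference of 0.31, with 16 positive and 7 negative, beside 46.2% of all gene names positive. At the brightest probe 8 of them lay wholly higher in old CMPs, beside 3.18% of tested gene names. Of 36 other HSC genes, all were tested and 1, the homeobox gene Hoxb5, was called higher by 1.85 ± 0.20 (limma adjusted p = 0.00707; at normexp 0.90 and not called). Their median difference was 0.29, with 13 wholly higher and 2 wholly lower, beside 3.18% and 1.66% of tested gene names.

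Lists of marker genes of other cells were set beside the members. Over all tested gene names, 3.18% lay wholly higher and 1.66% wholly lower, while 0.207% were called higher and 0.0432% lower. Of 12 megakaryocyte genes, 7 lay wholly higher in old CMPs and 1, the platelet receptor subunit Gp9, was called (1.21 ± 0.17, limma adjusted p = 0.0327). Their summed signal ran from 72.9 to 155 times the 75th percentile of the array in young and from 217 to 302 in old CMPs, so the sums did not overlap. Of 10 granulocyte and monocyte genes none was called and 4 lay wholly lower, with sums of 919 to 1194 in young and 604 to 766 in old CMPs. Of 11 endothelial genes, which matter for Esam, Tie1 and Tek, 8 were tested and none was called. Wholly higher were 2, of which 1 was tested, and wholly lower 0. The sums overlapped at 48.9 to 66.8 and 45.8 to 69.0. Cdh5, Sox18 and Flt4 were above background on no young and 1 old array each. The part of the megakaryocyte and granulocyte markers in the differences of the members was not tested. In sorted cells measured in bulk, a change in the share of cells that carry a gene and a change in RNA per cell cannot be told apart.

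On each array the members of a class were also summarized as the median deviation from the 8-array mean. For the aging-linked members the old arrays ran from 0.30 to 0.63 and the young from -0.74 to -0.25, without overlap. For the core HSC members the old arrays ran from 0.14 to 0.37 and the young from -0.55 to 0.05. The megakaryocyte genes ran from 0.39 to 0.67 in old and from -0.80 to -0.30 in young CMPs. These levels follow from members and arrays already described and add no independent evidence.

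**Figure D5:**
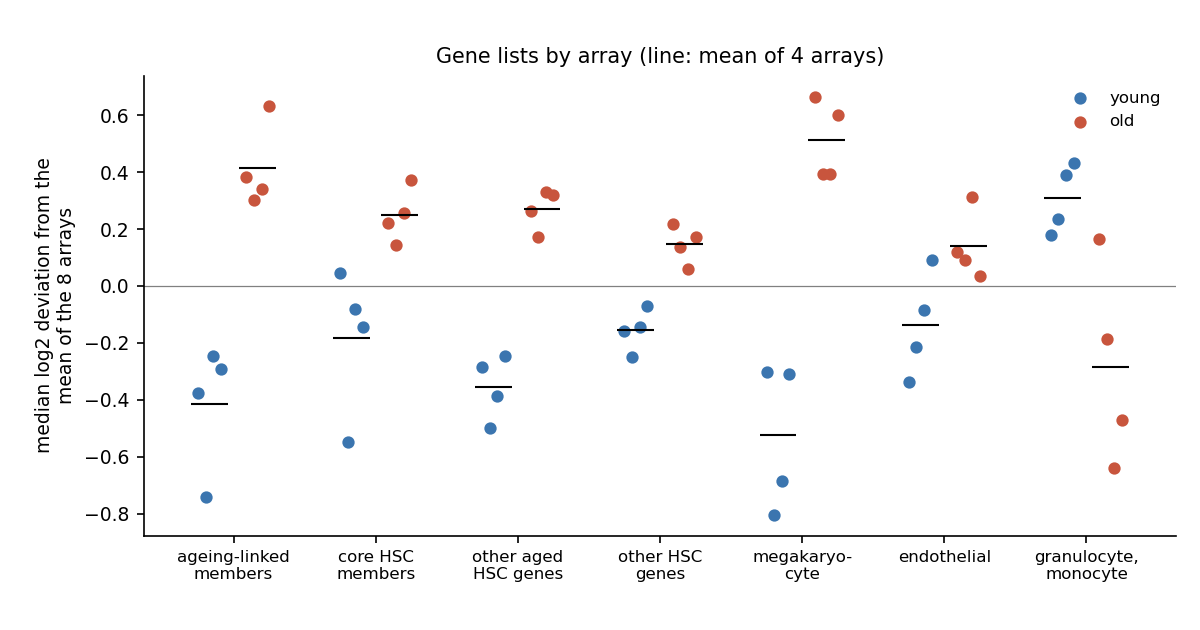
Median log2 deviation of the genes of each list from the mean of the 8 arrays (vertical axis), 1 point per array, lines at the mean of 4 arrays. Old arrays lie above young arrays for the aging-linked and core HSC members, the other aged HSC genes, the other HSC genes and the megakaryocyte genes, and below them for the granulocyte and monocyte genes.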

How the data were processed

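CMP RNA of 4 young and 4 old mouse samples was hybridized in 1 color to Agilent 8x60K arrays. The authors read the scans with Agilent Feature Extraction 10.7.3.1 (submitters' processing notes), and the deposited scanner files give background-corrected intensity per spot on a linear scale, background values, marks for outlier, saturated and well measured spots, and mm9 probe positions. A second table deposited by the authors for the whole series holds log2 values, shifted to the 75th percentile and centered on the median of all samples, and served as an alternative.

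Log2 signals minus the 75th percentile of each array (290 to 565 intensity units) were computed with R 4.3.3 and the package data.table (version 1.17.8). Outlier spots (141 to 230 per array) were left out and spots of a probe averaged. Of 55681 probes, 33472 reached the well-measured mark on 4 or more of 8 arrays and entered limma 3.58.1 (lmFit, eBayes, Benjamini-Hochberg over all of them), among them 42 of the 56 probes and 32 of the 41 members. The limma fit was also run on simulated arrays with independent noise, which held no slide or row effects and so cannot speak to these. The number of arrays limits the precision.

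The members and lists were chosen with earlier results of these data known. Every member is accounted for. Values on every array are given for members with a called probe or without overlap between the ages and for core HSC members, and of other lists the called genes are named. A member is shown by its called probe with the largest change, otherwise by its brightest probe. Replicate numbers 3, 4 and 5 occur at both ages, but deviations of same-numbered arrays correlated at -0.0928, -0.141 and 0.148, so the numbers were not taken as pairs. Alternatives were another background correction, normalization, filter, probe rule, test, variance model, the deposited table, blocks and single arrays left out. The normexp bound, the bounds for partly dim members and the count without the panel genes were added after seeing the data.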

Additional observations from a re-analysis of the deposited data

Results flagged for a closer look

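A single array stood apart from the other 3 of its age in 3 of the 82 groups of arrays examined, where chance alone gives about 1 in 20. Gda read 0.377 on old array 5, while the other old arrays lay between -0.0987 and -0.0546. Dhrs3 read 2.53 on young array 4, with the other young arrays between 3.27 and 3.36. Rorb read -5.02 on young array 5, where it was not well above background, with the other young arrays between -4.26 and -4.13.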

How the results depend on the processing

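Against 7 members called higher in the main setting, 10 were called with normexp, 8 with quantile normalization, the median shift or the deposited table, and 10 with the mean of a gene's probes. The members differed between settings. Normexp lost Clec1a and Rorb and added Clu, Sdpr, Ehd3, Esam and Pdzk1ip1. The deposited table lost Sprr2a2 and added Clu and Ehd3. The count was 4 with probes above background on all 8 arrays, where Sprr2a2, Rorb, Clu and Ehd3 were called. It was 11 with an intensity trend or with array weights, 18 with limma unadjusted, 16 with the methods' t-test unadjusted and 0 after adjustment, 0 within slide 1 or slide 2 alone, 2 without the panel genes, and 4 to 6 with 1 array left out. Members called lower were 0, with 1 (Gpr183) by either unadjusted test and 0 to 0 with an array left out. Aging-linked members called were 4 with all 8 arrays above background, 13 and 15 by the unadjusted t-test and limma, 0 by the adjusted t-test and within either slide, and 4 to 6 with an array left out. Core HSC members called were 2 with normexp (Esam and Pdzk1ip1), 1 with quantile normalization, gene means, the trend or array weights (Pdzk1ip1), 3 by either unadjusted test, and 0 to 0 with an array left out. Of the other aged HSC genes, 7 were called with normexp, 1 without a filter or with 1 array above background, 10 and 11 by the unadjusted t-test and limma, 0 by the adjusted t-test and within either slide, 8 with the trend, 5 with weights and 1 to 2 with an array left out. Of the other HSC genes, 0 were called with normexp, with all 8 arrays above background, by the adjusted t-test and within either slide, 11 and 12 by the unadjusted t-test and limma, 2 with the trend, 3 with weights and 1 to 1 with an array left out. The median of the aging-linked members was 0.49 with normexp, 0.65 within slide 2 and 0.72 to 0.98 with an array left out, and that of the core members 0.34 with normexp and 0.42 to 0.77 (highest without old array 4). Over all gene names, calls were 48 higher and 10 lower, 75 and 21 with normexp, and 54 and 3 with quantile normalization. They were 58 and 5 with the median shift, 55 and 6 with the deposited table, and 58 and 12 with gene means. Unadjusted, they were 777 and 631 with limma and 587 and 359 with the t-test. The adjusted t-test and either slide alone gave 0 and 0. They were 77 and 15 with the trend, 190 and 88 with array weights, and 24 and 2 without a filter. With probes above background on all 8 arrays they were 32 and 6, and on at least 1 array 27 and 2. With 1 array left out, 22 to 37 gene names were called higher and 2 to 6 lower. No member with a call changed sign. The causes were not tested.

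With the replicate number as a block, 3 members were called (Plscr2, Tm4sf1 and Sprr2a2), all aging-linked, beside 12 gene names higher and 1 lower. Of the lists, 1 other aged HSC gene and 0 other HSC genes were called. Only 6 arrays have a partner in this pairing, which leaves fewer samples. Dim signals limit Clec1a, Ptprk, Cyyr1 and Mamdc2 to bounds.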

Other observations

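Nupr1 separated the arrays within each age. It measured 3.25 and 2.80 on young arrays 3 and 4 and 1.37 and 1.67 on young arrays 5 and 6, with 4.27 and 3.81 on old arrays 2 and 3 and 2.35 and 2.28 on old arrays 4 and 5. Its pooled SD within an age was 0.959, beside a median of 0.354 over tested probes. The high and low young arrays lay on slides 1 and 2, whereas each slide held 1 high and 1 low old array.

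Of 8 erythroid genes and 10 lymphoid genes, none was called in either direction by limma, beside 0.25% of tested gene names. The erythroid sums ran from 17.5 to 58.1 times the 75th percentile in young and from 19.8 to 42.7 in old CMPs, and the lymphoid sums from 11.8 to 18.3 and from 11.4 to 15.7. Rag1, Ebf1 and Pax5 were not well above background on any array.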
